A study of Mus musculus with 2 samples.

Results

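The Zfp-numbered genes are mouse genes whose symbol is Zfp followed by digits alone, most of which encode zinc finger proteins. They were found by symbol in the array's probe-to-gene table, from probesets that name 1 gene, with Zfp36 left out. The table held 274 such symbols. Of these, 230 had at least 4 bright probesets and are the members described here, among 15100 genes measured in all. A probeset is a small set of probes for a stretch of a transcript, and it counted as bright if it reached the median of all values, 3.17 (log2 intensity), in at least 1 array. The members were thus chosen by symbol and selected on this brightness in the same 2 arrays, so all their values are given as a description. The other 44 symbols had 1 to 3 bright probesets each, and 26 of them had fewer than 4 probesets in the table.

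The study asked how blocking the histone demethylase LSD1 affects mouse blood precursor cells. Bry-GFP embryonic stem cells formed embryoid bodies, from which FLK1-positive mesoderm was taken on day 3. This mesoderm was then kept in DMSO, the solvent control, or in 300 nM of an LSD1 inhibitor known as compound B, and CD41-positive cells were sorted from either culture on its day 2. Each group is 1 array of total RNA from cells that the labels call hemogenic endothelial, so no test between the groups was possible. All differences describe these 2 arrays, and their number limits the precision.

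Most C2H2 zinc finger proteins bind DNA through arrays of short fingers, each held by a zinc ion. Many of them also carry a KRAB box, which recruits the corepressor Trim28 and with it the H3K9 methyltransferase Setdb1, and this branch of the family silences retroelements and protects genomic imprints. LSD1 is itself brought to genes by zinc finger repressors, among them Gfi1 and Gfi1b in blood and endothelium, whose SNAG domain it binds. Zfp516 and Zfp217 are known from other tissues as proteins that associate with LSD1. The symbols are a naming series and not a strict family: Zfp185 encodes a LIM domain protein, and Zfp259 is the older symbol of Zpr1.

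The sequences just upstream of 3 members at or near the 2-fold limit, in either direction, are printed. Other such members, among them Zfp516, are not shown. The printed sequences are the 250 bases before the annotated start in RefSeq, build GRCm38.p6, and capitals mark matches to the motifs searched. Zfp277 lies at chr12:40445791-40446040 on the minus strand, Zfp69 at chr4:120951702-120951951 on the minus strand and Zfp760 at chr17:21707491-21707740 on the plus strand.
Zfp277: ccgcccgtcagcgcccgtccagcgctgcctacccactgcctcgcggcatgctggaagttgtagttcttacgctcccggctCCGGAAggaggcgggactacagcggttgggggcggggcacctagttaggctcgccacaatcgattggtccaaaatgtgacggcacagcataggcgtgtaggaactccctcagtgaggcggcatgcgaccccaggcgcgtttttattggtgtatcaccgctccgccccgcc
Zfp69: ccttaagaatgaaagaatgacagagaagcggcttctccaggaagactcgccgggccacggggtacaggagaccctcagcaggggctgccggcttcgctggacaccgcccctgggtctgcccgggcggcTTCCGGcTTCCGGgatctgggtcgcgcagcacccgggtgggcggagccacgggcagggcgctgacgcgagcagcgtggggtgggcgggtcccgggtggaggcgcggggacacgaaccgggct
Zfp760: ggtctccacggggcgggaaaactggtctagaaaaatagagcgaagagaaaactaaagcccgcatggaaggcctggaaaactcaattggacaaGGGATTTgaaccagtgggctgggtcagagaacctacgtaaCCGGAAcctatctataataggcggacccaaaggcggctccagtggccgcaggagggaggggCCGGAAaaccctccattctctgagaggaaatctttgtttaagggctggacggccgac
The ETS core CCGGAA, searched on both strands, matched 1 time in the Zfp277 sequence and 2 times in each of the other sequences. The Gfi1 core AAATCNC matched 1 time, in the Zfp760 sequence. The Zfp69 table entry has 2 starts, of which the most upstream is shown.

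Promoter windows of 300 bases, 250 before and 50 after the start, were available for 180 members (231 windows). The ETS core was in 35.9% of the member windows and in 22.8% of the 15239 windows of measured genes. The Gfi1 core was in 15.6% of the member windows and 9.64% of all windows, the GATA motif AGATAA in 6.93% and 7.18%, and the YY1 motif AAGATGGCG in 3.46% and 2.31%. A match is a string of letters and no measured binding site. The 32 members with a Gfi1 core in a window had a median log2 difference of 0.09 (19 above 0), and the 148 without had 0.17 (104 above 0). For the ETS core the medians were 0.17 in 75 members with it and 0.14 in 105 without, for the GATA motif 0.31 in 15 and 0.17 in 165, and for the YY1 motif 0.20 in 8 and 0.17 in 172. The median number of CpG dinucleotides was 17 per member window and 18 per window of all measured genes.

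Most Zfp-numbered genes differed little between the arrays, and their differences lay more often above 0 than below. A gene's level is the median of its bright probesets in an array, and its difference is the median of their differences, inhibitor minus DMSO, in log2 intensity. The difference was above 0 in 154 of the 230 measured members (67%) and below 0 in 76. Over all 15100 measured genes, 58.9% were above 0. The median difference was 0.14 over the members and 0.06 over all genes, and the members' middle 50 percent lay between -0.09 and 0.34. When a trend of difference with brightness was removed, the medians were 0.07 and -0.0047, and 57.4% of members and 49.2% of all genes were above 0. The members' median stayed 0.05 to 0.10 above that of all genes in each of 17 alternative ways of processing the values. Members that reached the filter through the array in which they were higher had to differ. Of the 230, 220 had 4 bright probesets in each array on its own, 5 in the inhibitor array alone, 3 in the DMSO array alone and 2 in neither. Over those 220 members the median was 0.14, with bright probesets still picked by their higher value. With probesets that were bright in both arrays, 219 members had a median of 0.10, beside 0.05 over all genes. In a bulk sample fewer cells of a type and less RNA per cell cannot be told apart.

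**Figure D1:**
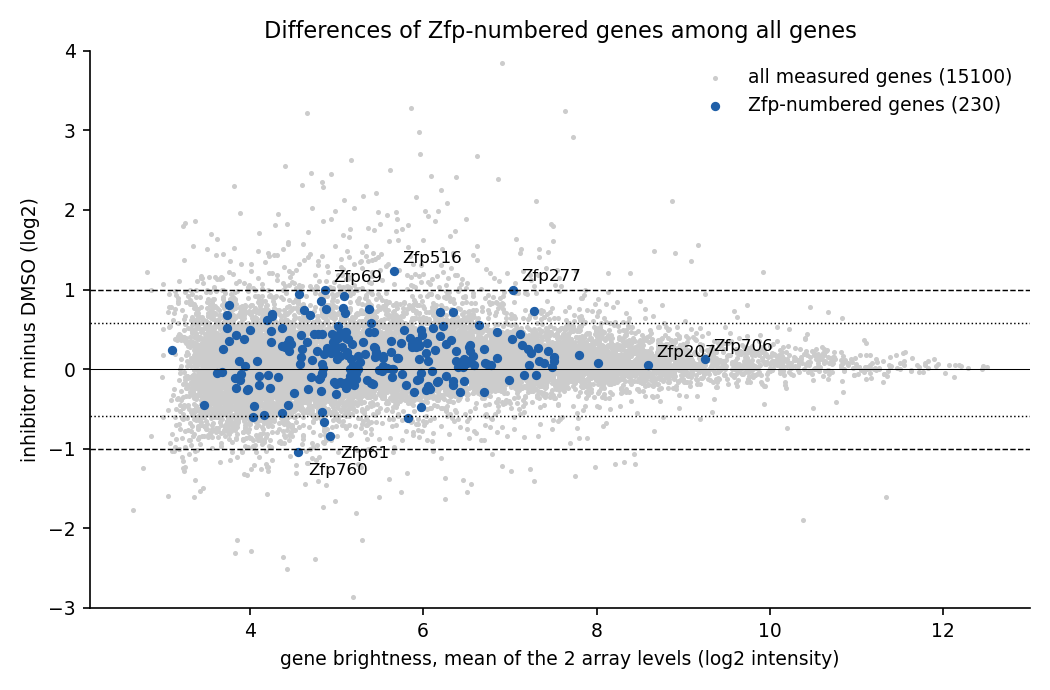
Each point is a gene, with its brightness (mean of the 2 array levels, log2 intensity) on the x axis and its inhibitor minus DMSO difference (log2) on the y axis. Dashed lines mark 2-fold and dotted lines 1.5-fold: of 230 blue Zfp-numbered genes, Zfp516 lies above the upper dashed line and Zfp760 below the lower one, among 15100 grey genes.

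Large differences were rare. The 2-fold rule asks for a difference of 1 or more in size, with 75% or more of the gene's bright probesets going the same way. Among the members 1 was higher by this rule, Zfp516, and 1 was lower, Zfp760, where 1.73% of all genes were higher and 0.563% lower. By the same rule at 1.5-fold, 14 members were higher (6.09%) and 4 were lower (1.74%). Over all genes 5.87% were higher and 2.68% were lower at 1.5-fold, so the members' shares were near the background. Another 6 members were higher and 1 was lower by 1.5-fold in size without 75% of probesets in the same direction. Some of the 14 and of the 4 were members only through the array in which they were higher. Of the 220 members with 4 bright probesets in each array, 12 were higher (5.45%) and 3 lower (1.36%) by the 1.5-fold rule. The spread over a gene's probesets (SD 0.62 in the median member) is larger than most of these differences, and it is no replicate error.

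All genes were also split into 4 equal bins by brightness, the mean of their 2 levels, and in each bin the share of members above 0 was higher than that of all genes. The dimmest bin held 33 members with a median difference of 0.04 and 51.5% above 0, beside -0.02 and 47.6% for all genes there. In the next bin 86 members had a median of 0.18 and 65.1% were above 0, beside 0.02 and 53% for all genes there. The bin above it held 86 members with a median of 0.13 and 68.6% above 0, beside 0.099 and 66% for all genes there. The brightest bin held 25 members with a median of 0.13, of which 22 were above 0 (88%), beside 0.08 and 69% for all genes there. At the edge of the filter, the members nearest inside were Zfp474, Zfp709 and Zfp72, whose brightest 4 probesets reached down to 3.24, 3.31 and 3.32. The nearest outside were Zfp459, Zfp488 and Zfp365, at 3.14, 3.13 and 3.12.

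Zfp516, a zinc finger factor of brown fat that is known to bind LSD1, had a level of 5.24 in the DMSO array and 6.09 in the inhibitor array. Its difference was 1.23 (2.34-fold, SD 0.67 over 7 probesets), with 6 probesets higher and 1 lower. The probeset differences ran from -0.51 to 1.38, so most but not all of its probesets were higher. The difference lay between 0.90, as a mean over probesets, and 1.26 over the 15 alternatives that measured it. It passed the 2-fold rule in 14 of these 15.

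Zfp277, a protein reported to work with Polycomb proteins, had levels of 6.60 and 7.47. Its difference was just under the 2-fold limit (0.9964, SD 0.67), and 16 of its 17 probesets were higher. With each array centred on its median it passed the 2-fold rule. Zfp69, a KRAB zinc finger gene linked to diabetes in obese mice, had levels of 4.25 and 5.49 and a difference of 0.99 (SD 0.62, 10 of 11 probesets higher). Its difference stayed between 0.95 and 1.17 over 17 alternatives, and it passed the 2-fold rule in 8 of them.

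Zfp532 belongs to a group of nuclear proteins with Zfp592 and Zfp687 that bind the chromatin reader Zmynd8. Its level was 4.67 in the DMSO array and 5.50 in the inhibitor array, a difference of 0.92 (SD 0.52) with all 15 probesets higher. Its partners differed less: Zfp592 had levels of 7.71 and 7.88 (difference 0.18) and Zfp687 had 6.49 and 6.45 (0.13). Over its brighter probesets only, Zfp532 was at 0.52, below the 1.5-fold limit of 0.58. Zfp37, a KRAB gene best known from testis and neurons, had a difference of 0.95, but 3 of its 11 probesets were lower, and its levels were 4.41 and 4.73. It missed the direction requirement, and it was at 0.40 when probesets had to be bright in both arrays.

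The other members higher past the 1.5-fold rule had differences between 0.71 and 0.85. Zfp521, a corepressor of early blood and B cell progenitors, had levels of 5.95 and 6.44 and a difference of 0.71, with 12 of 13 probesets higher. Over its brighter probesets only it was at 0.39, under the 1.5-fold limit. Zfp711, a factor of CpG island promoters that works with the demethylase Phf8, had levels of 6.75 and 7.80 and a difference of 0.73 (12 of 14 higher). It was at 0.23 with its odd-ranked probesets alone. Zfp593, a small protein of ribosome assembly, differed by 0.72 with 6 of 6 probesets higher, from 6.02 to 6.68. The KRAB repressor genes Zfp382 and Zfp667 differed by 0.76 (7 of 7) and 0.75 (3 of 4), and Zfp382 was at 0.55, under the limit, with probesets bright in both arrays. Zfp185, the LIM domain gene, differed by 0.77 (levels 4.68 and 5.46). Zfp474, Zfp442, Zfp651 and Zfp9 made up the 14, at 0.85, 0.80, 0.75 and 0.71. Zfp474 and Zfp442 each had 3 probesets at or above 3.17 in the DMSO array and were therefore members through the inhibitor array. When low values were raised to 3.17, Zfp442 was at 0.31 and Zfp474 at 0.42. Zfp651 was at 0.24 when dim probesets were kept.

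**Figure D2:**
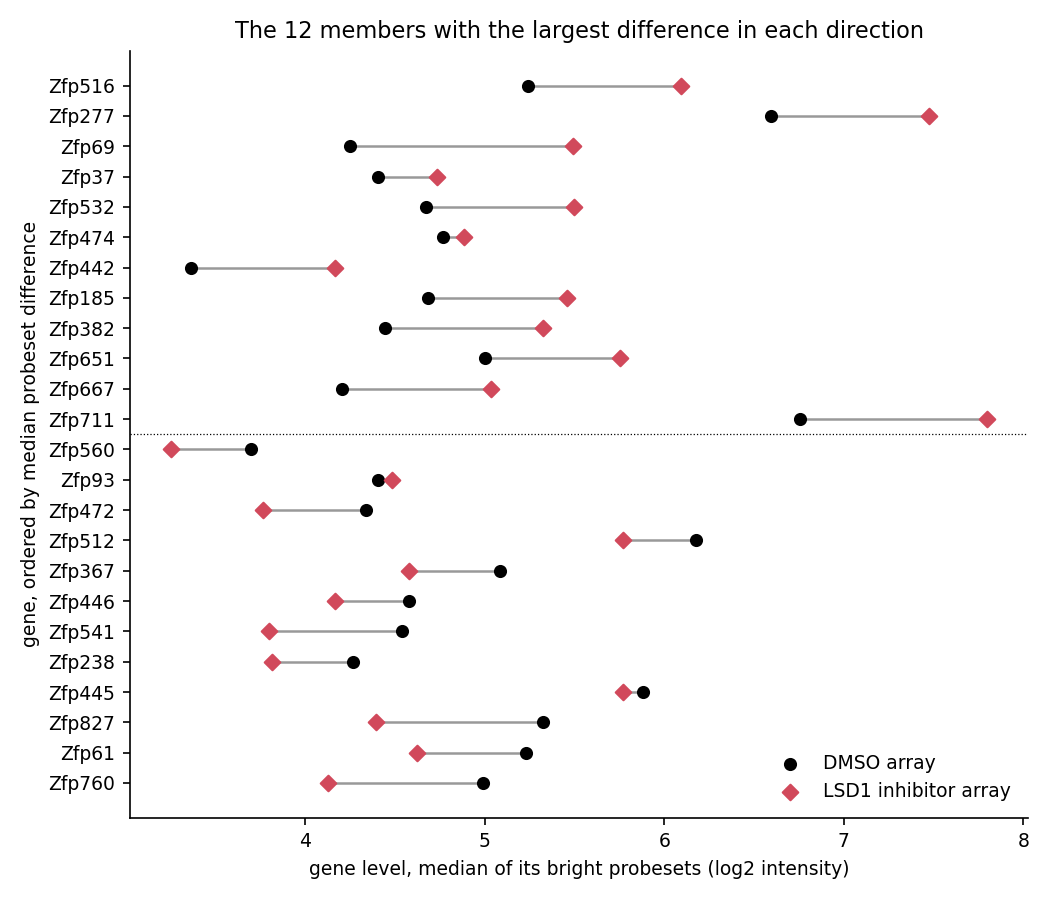
Levels (median of a gene's bright probesets, log2 intensity, x axis) in the DMSO array (black circles) and the LSD1 inhibitor array (red diamonds) for the 12 members with the largest difference in each direction, in order of difference. The levels of Zfp516 are 5.24 and 6.09 and those of Zfp760 are 4.99 and 4.13, and the levels of Zfp93 run against its difference.

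Zfp760 was the member furthest down. It had a level of 4.99 in the DMSO array and 4.13 in the inhibitor array, with a difference of -1.05 (2.06-fold lower, SD 0.83). Of its 10 probesets 8 were lower and 2 higher, from -2.30 to 0.64, so the direction was not shared by every probeset. It was between -1.24 and -0.89 over 17 alternatives and passed the 2-fold rule in 11. The 11 include at least 8 and at least 1 bright probesets and no direction requirement, which repeat the main value. Zfp61 had levels of 5.23 and 4.62 and a difference of -0.83, with 6 of 6 probesets lower. It was at -0.35 when dim probesets were kept.

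Zfp445, a KRAB protein that keeps imprints together with Zfp57, differed by -0.61 with 9 of 12 probesets lower, from 5.88 to 5.77. It passed the 1.5-fold rule in 12 of 17 alternatives. Zfp57 itself had levels of 5.51 and 6.23 and a difference of 0.31 (7 of 9 higher), which was 1.02 with odd-ranked and 0.06 with even-ranked probesets. The 2 genes had opposite signs, and each had probesets on either side of 0. Zfp238, the older symbol of the neuronal BTB repressor gene Zbtb18, was the last of the 4 lower members, at -0.60 over 4 probesets, and it passed in 6 of 11. It had 3 probesets at or above 3.17 in the inhibitor array and was therefore a member through the DMSO array. Zfp827, a telomere-associated protein gene, differed by -0.66 (levels 5.33 and 4.39) with 5 of 16 probesets higher and so missed the direction requirement. The other members among the 12 furthest down, Zfp541, Zfp446, Zfp367, Zfp512, Zfp472, Zfp93 and Zfp560, ran from -0.58 to -0.45. Of these, Zfp541 and Zfp560 each had 3 probesets at or above 3.17 in the inhibitor array and were members through the DMSO array. Zfp93 shows how the measures can part: its levels were 4.41 and 4.48 while its difference was -0.45. Difference and gap of levels had opposite signs in 52 of the 230 members.

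**Figure D3:**
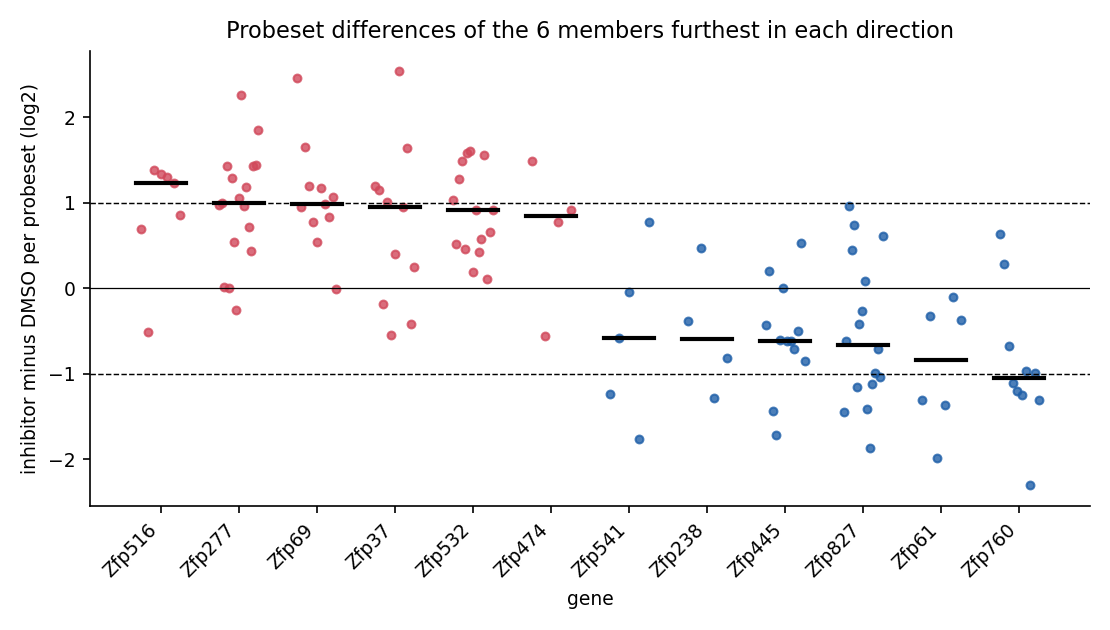
Every point is the inhibitor minus DMSO difference (log2, y axis) of a bright probeset, for the 6 members furthest up (red) and the 6 furthest down (blue), and black bars are the gene medians. All 15 probesets of Zfp532 lie above 0 and all 6 of Zfp61 below it, whereas Zfp37, Zfp445 and Zfp827 have probesets on each side of 0.

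Odd-ranked and even-ranked probesets of a gene give a partial check on such values, within the same 2 arrays. Both could be summarised for 154 members, and the differences had the same sign in 105 of these (68.2%, beside 66.7% of 10338 genes). The correlation across these members was r = 0.44, and 0.55 across all such genes, which share the 2 arrays and are not independent. Many Zfp genes have near relatives with like finger sequences, so a probeset can also bind a paralog, and the values of single members are uncertain to that extent.

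Members with known roles in chromatin complexes had a median difference of 0.31 over 10 genes. Of the 10, 7 were above 0 and Zfp516 and Zfp532 were higher past the 1.5-fold rule, where 58.9% of all genes were above 0 and 5.87% higher by that rule. The list was not tested against that background. Zfp217, which is known to associate with CoREST, CtBP and LSD1, had levels of 5.70 and 6.53 and a difference of 0.51 with 8 of 8 probesets higher, below the 1.5-fold limit. It was between 0.40 and 0.70 over the alternatives. Zfp618 differed by 0.52 (15 of 19 higher) and Zfp652, a partner of the ETO family corepressor Cbfa2t3, by 0.44. On the other side, Zfp644, a partner of the H3K9 methyltransferases G9a and GLP, differed by -0.28 (11 of 15 lower), and Zfp410, an activator of Chd4, by -0.14. Zfp335 was at -0.0017.

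Lineage factors had a median difference of 0.26 over 10 genes, 8 above 0 beside 58.9% of all genes, with Zfp521 the single member past the 1.5-fold rule. Zfp423, a relative of Zfp521 that acts in BMP signalling and fat cells, had levels of 5.66 and 6.03 and a difference of 0.40. Zfp608 differed by 0.42 with 21 of 26 probesets higher, and its relative Zfp609 by 0.27 with 19 of 24 higher. Zfp503 was at 0.28, Zfp467 at 0.24, Zfp148 at 0.10, Zfp384 at 0.03, Zfp703 at -0.0035 and Zfp318 at -0.14. The signs of the smaller values were not stable over the alternatives: Zfp384 ran from -0.08 to 0.11, Zfp148 from -0.07 to 0.24, Zfp703 from -0.16 to 0.15 and Zfp318 from -0.25 to 0.03. With the brightness trend removed Zfp384 and Zfp148 were below 0, and with arrays centred Zfp703 was above it.

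The stem cell and imprinting members measured were Zfp57, Zfp281, Zfp296 and Zfp462, and none passed the 1.5-fold rule. Zfp281, a regulator of pluripotency exit, had levels of 5.96 and 6.79 and a difference of 0.22 with 12 of 15 probesets higher. Zfp296 was at 0.29 (4 of 4 higher) and Zfp462 at -0.08. Zfp42, known as the stem cell marker Rex1, had fewer than 4 bright probesets. The list of retroelement and KRAB target repressors had 3 measured genes. Zfp809, which silences retroviruses in embryonic cells, had levels of 6.03 and 6.49 and a difference of 0.32 with 6 of 6 probesets higher, Zfp568 was at 0.06, and Zfp932, listed under an older symbol and so no member, was at 0.04. Zfp708 and Zfp819 were not measured.

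Members with roles in RNA, ribosomes, the spindle or ubiquitin transfer had a median of 0.07 over 8 genes. That median was -0.03 with the brightness trend removed. Zfp593 was the single gene past the 1.5-fold rule. Zfp207, a spindle assembly protein also called BuGZ, had levels of 8.60 and 8.58 and a difference of 0.05 over 32 probesets. Zfp326, of a splicing and elongation complex, was at 0.27, Zfp622 at 0.15, Zfp106 at 0.08 and Zfp598, which marks stalled ribosomes, at 0.05. Zfp91, a ubiquitin ligase, was at -0.08 and Zfp346, which binds double-stranded RNA, at -0.20. Zfp830 was not measured. The 8 members with the highest DMSO values, which as probe brightness do not rank abundance, were Zfp706, Zfp207, Zfp828, Zfp592, Zfp511, Zfp771, Zfp622 and Zfp259. Their differences ran from 0.02 for Zfp259 to 0.23 for Zfp771, and Zfp706 had levels of 9.20 and 9.30. The levels ran against the difference in Zfp771 (7.57 and 7.32, SD 0.81 over 4 probesets), Zfp511 (7.63 and 7.39), Zfp622 (7.52 and 7.49) and Zfp207. Zfp511 was at -0.04 over its brighter probesets only. With the brightness trend removed, Zfp207 was at -0.04, Zfp259 at -0.07 and Zfp828 at -0.02.

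The corepressors that KRAB zinc finger proteins work through differed little. All 23 listed genes were measured, and their median was 0.04, beside 0.06 over all genes. By the 1.5-fold rule 1 was higher (4.35%) and 0 were lower, beside 5.87% and 2.68% of all genes. The corepressor median was -0.0047 after quantile normalization and -0.06 with the brightness trend removed. All genes then had 0.05 and -0.0047. Trim28, the KRAB corepressor itself, had levels of 8.95 and 8.91 and a difference of 0.02 (SD 0.20 over 20 probesets). Setdb1 was at -0.08, and the silencing complex genes Mphosph8, Pphln1 and Tasor were at 0.01, 0.14 and 0.07. Chd3, a remodeller of the NuRD complex that KRAB-bound Trim28 can recruit, was the higher gene, with levels of 5.03 and 5.50 and a difference of 0.60. The DNA methyltransferase gene Dnmt3a differed by 0.55 with 23 of 24 probesets higher, and the heterochromatin protein gene Cbx5 by -0.36 with 7 of 9 lower.

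Other zinc finger gene families of these arrays had medians on the same side of 0, as had all measured genes (median 0.06, 58.9% above 0). Zbtb genes, whose fingers are joined to a BTB domain, had a median of 0.11 over 25 genes (72% above 0). None of these 25 passed the 1.5-fold rule in either direction. The families were picked by the array's gene symbols. Genes listed there under an older Zfp symbol count as members instead, among them Zbtb18 (Zfp238), which was lower past 1.5-fold. Zscan26 (Zfp187), Zkscan7 (Zfp167) and Zkscan8 (Zfp192) are likewise counted as members. Zscan and Zkscan genes, which carry a SCAN domain, had 0.20 over 15 genes, 12 above 0. Of these, 2 were higher past 1.5-fold (13.3%, beside 5.87% of all genes). They were the stem cell factor gene Zscan10, with levels of 4.01 and 4.97 and a difference of 1.10, and Zscan21 at 0.61. Klf genes had a median of 0.12 over 16 genes and ran from -1.12 to 1.18, the widest range of these other families. By the 1.5-fold rule 2 were higher (12.5%) and 1 lower (6.25%), beside 5.87% and 2.68% of all genes. The lower gene was Klf1, which is also listed among the erythroid markers below. Over brighter probesets only, the medians were 0.0005 for Zbtb, 0.13 for Zscan and Zkscan, 0.31 for Klf and 0.10 for the Zfp-numbered genes. All genes had 0.04 there. With the brightness trend removed, the medians were 0.03 for Zbtb, 0.17 for Zscan and Zkscan and 0.02 for Klf. The Zfp-numbered genes then had 0.07 and all genes -0.0047. No difference between the families was tested.

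**Figure D4:**
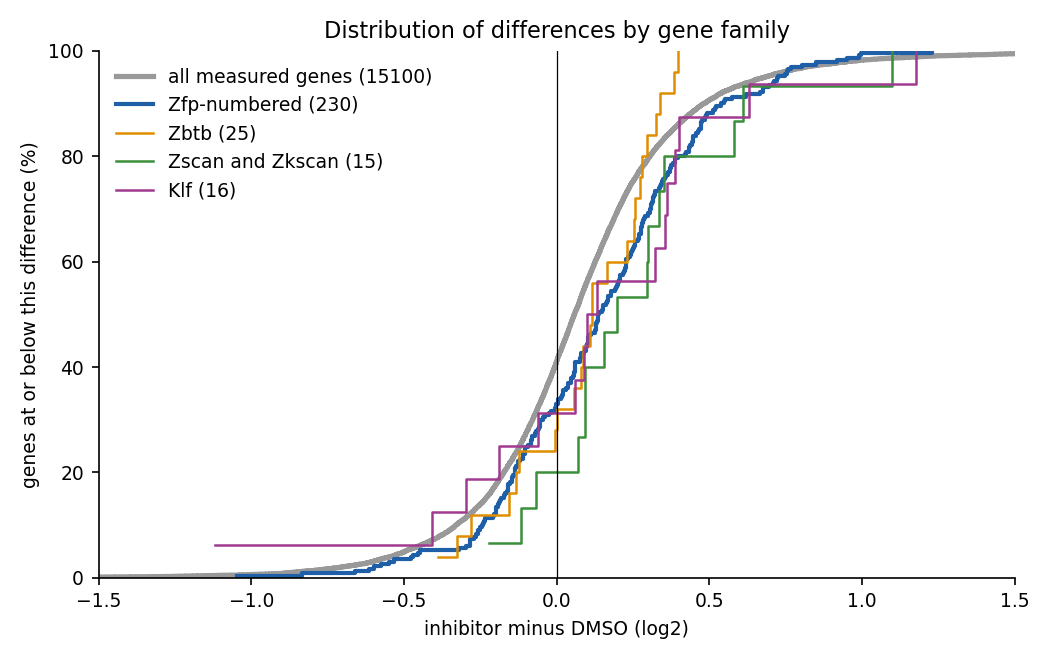
Cumulative share of genes (y axis, percent) at or below each inhibitor minus DMSO difference (x axis, log2) for all 15100 measured genes, 230 Zfp-numbered, 25 Zbtb, 15 Zscan and Zkscan and 16 Klf genes. The Zfp-numbered curve crosses 0 lower than the grey curve, since 67% of its genes are above 0 against 58.9% of all genes.

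Many Zfp genes lie side by side in the genome, and the differences of neighbouring members were almost uncorrelated. By the order of protein-coding genes in the RefSeq table of GRCm38.p6, 228 members could be placed, and 78 of them lay next to another member, in 29 runs. Of 49 neighbouring pairs 28 had differences of the same sign (57.1%, beside 53.4% of 11547 neighbouring pairs of measured genes). The correlation across these pairs was r = 0.03, and 0.09 across all neighbouring pairs. Members in runs had a median difference of 0.11 (61.5% above 0) and the 150 members outside runs 0.15 (69.3%). The median brightness was 5.10 in runs and 5.45 outside, and its part in that gap was not tested.

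The longest runs differed in the share of genes above 0, which was not tested. Of all members in runs 61.5% were above 0, beside 58.9% of all genes. In the run of 8 from Zfp235 to Zfp94, 3 genes were above 0, and the values ran from -0.83 for Zfp61 to 0.47 for Zfp109. In the run of 7 from Zfp420 to Zfp82, 6 were above 0, with a median of 0.47: Zfp27 was at 0.68, Zfp14 at 0.67, Zfp82 at 0.62, Zfp383 at 0.47, Zfp74 at 0.27 and Zfp568 at 0.06. The first gene, Zfp420, was at -0.06. None of these 7 passed the 1.5-fold rule: the other 4 were under that size, and Zfp27, Zfp14 and Zfp82 each had under 75% of their probesets higher. Zfp27 had equal levels in the arrays, 4.70 and 4.70. Zfp568, an embryonic repressor of a placental Igf2 promoter, had levels of 7.07 and 7.37.

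**Figure D5:**
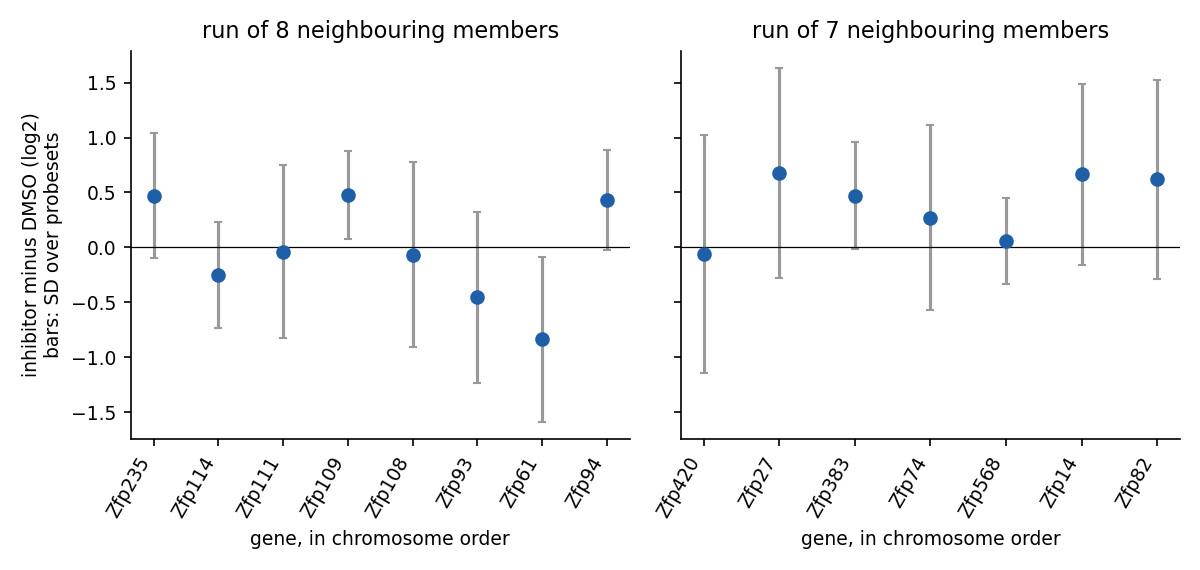
Inhibitor minus DMSO difference (log2, y axis) of the members in the 2 longest runs of neighbouring Zfp-numbered genes, in chromosome order, with bars for the SD over a gene's probesets within these 2 arrays. In the run of 7 all genes but Zfp420 are above 0, and in the run of 8 there are 3.

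Cell type markers also differed between the arrays. Of 8 erythroid markers, all were lower, 6 of them (75%) past the 1.5-fold rule, with a median of -1.13. Hbb-bh1 at -0.29 and Alas2 at -0.07, with 4 of 13 probesets higher, did not pass. The 2 measured megakaryocyte markers were lower past the rule. Over all genes 2.68% were lower and 5.87% higher by that rule. Of 7 markers of the CD41 sort and hemogenic endothelium, Cdh5, Kdr and Tek were higher past 1.5-fold and Kit was lower. The others did not pass: Tal1 was at -0.46 with 9 of 9 probesets lower, Runx1 at 0.115 and Itga2b, the gene of the sort marker, at -0.12. The 3 macrophage, 3 smooth muscle and 3 undifferentiated stem cell markers held no gene past the rule. Pou5f1 was at 3.95 and 4.47, and Nanog at 4.39 and 4.44. The part of these markers in the Zfp differences was not tested.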

How the data were processed

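The deposited table holds 1 value per probeset for each of 2 Affymetrix arrays, 1 DMSO and 1 inhibitor. Per the labels' protocols, single-stranded cDNA from amplified cRNA was biotin-labelled. The scale was read as log2 intensity from the deposited values (0.157 to 13.5); summarisation and normalization were not stated in the sources used. The table has 1048575 probesets, of which 270105 name 1 gene; with its header this equals a spreadsheet's row limit, so probesets beyond it were not analysed here. Values were used as deposited, without scaling, in python 3.11.15 with pandas 2.3.3 and statsmodels 0.14.6. Genes were grouped by the symbol in the annotation table; 15 members have a newer symbol.

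With 1 array per group, genes were described by fixed size rules, 2-fold and 1.5-fold, and no test was made. The text names members past 2-fold, the 12 furthest in each direction, the 8 with the highest DMSO value, role lists and those at the filter's edge; Zfp9, the longest runs and Zscan, Klf and corepressor examples were named after their values were seen. The members and lists were chosen with earlier results of these data known. A planned split by protein motifs was not made. The gene summary was tested on simulated data in which 200 genes were changed by more than 2-fold and called by the 2-fold rule. That test did not cover smaller differences or the 1.5-fold rule.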

Additional observations from a re-analysis of the deposited data

How the results depend on the processing

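With 1 array per group nothing could be left out, and array effects cannot be told apart from the treatment. No paired analysis was possible because each group has 1 array and no fit was made. The members were recomputed in 17 other ways, and in 1 more, members with 4 bright probesets in each array, chosen after seeing the data. The members' median of 0.14 and the 67% above 0 kept their direction in all of them; with the brightness trend removed they were 0.069 and 57.4%. Counts depended on how probesets were chosen. The 1 gene 2-fold higher became 6 with at least 1 bright probeset, 3 with arrays centred, with the 75th percentile filter or with odd-ranked probesets, 2 with quantile normalization, even-ranked or brighter probesets, or probesets bright by the mean or in both arrays, and 0 with at least 8 bright probesets, which leaves Zfp516 out. The 1 gene 2-fold lower became 2 with at least 1 bright probeset and 0 with no filter, the mean, the 75th percentile filter, probesets bright in both arrays, brighter or odd-ranked probesets. The number of members changed too: 274 with at least 1 bright probeset, 154 with at least 8 and 179 with brighter probesets. Shares of all genes at 2-fold are not given for these ways. The 14 genes 1.5-fold higher became 25 with at least 1 bright probeset (9.12%, beside 8.24% of all genes). They became 6 with at least 8 (3.9%, beside 5.14%) and 8 with brighter probesets (4.47%, beside 5.32%). The 4 genes 1.5-fold lower became 8 with at least 1 bright probeset (2.92%, beside 5.85% of all genes). With probesets bright in both arrays there was 1 (0.457%, beside 1.66%). There were 2 with at least 8 (1.3%, beside 1.76%), brighter probesets (1.12%, beside 2.12%) or the 75th percentile filter (1.07%, beside 2.38%). With low values raised to the median there were also 2 (0.87%, beside 1.66%). Over the 17 ways, 36 of 958 recomputed differences of the 61 named members had the opposite sign, in 17 members whose differences were at most 0.45 in size. Changing the minimum number of bright probesets or dropping the direction requirement leaves a gene's difference as it was. The 958 include such repeats, whose sign could not change. The table has no detection calls, so dim probesets cannot be told from background.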
